A study of Hordeum vulgare with 18 samples.

Results

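Small RNAs of barley shoots kept at 35.5 °C were compared between 1 h and 3 h of exposure. The comparison took the 3 libraries labelled high temperature for 3 h and the 3 labelled high temperature for 1 h, which is 6 of the 18 libraries of the series, and all 6 were sequenced on lane 1. The plants were 2-week-old spring barley of the line Rolap, grown at 21 °C by day and 15 °C by night before treatment, and all groups carried the same genotype. Control plants stayed at 21 °C, and their 3 libraries of 1 h, also on lane 1, are given beside the heated values. The 3 control libraries of 3 h were on lane 2. No control of 3 h was therefore on the lane of the heated libraries, and time in heat and time of harvest cannot be told apart in the comparison. The labels call the 3 samples of a group biological replicates of shoots and give the heated groups no shared replicate number. Replicates are numbered here in the order of the samples.

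A plant microRNA (miRNA) is cut as a short duplex from a hairpin precursor by a Dicer-like enzyme. One strand is kept in an ARGONAUTE protein and guides the silencing of matching mRNAs, while the other strand of the duplex is usually short-lived. Many families are shared by most land plants and regulate transcription factors, hormone receptors and nutrient transporters, and grasses such as barley have further families of their own. The deposited tables list each distinct sequence that matches a known plant precursor without a mismatch. They call it mature 5′ or mature 3′ where it equals a mature miRNA annotated with that label. They call it precursor otherwise, so that class also holds end variants of mature miRNAs. The label is not always the hairpin arm, as MIR444b and MIR444c sequences labelled mature 5′ and mature 3′ overlap in their letters. Sequences are named by the plant whose precursor they matched, so a name from another species marks a barley read identical to a stretch of that species' precursor.

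The 1 h and 3 h tables shared 3193 sequences of 18 to 25 nt, in 125 numbered families, and these held 99.96 to 99.98% of the table counts of the 6 heated libraries. The table counts ran from 2069641 to 3137327 per library at 1 h and from 1809436 to 2758230 at 3 h. The library totals implied by the deposited normalized values were 36733392 to 44219180 at 1 h and 27671565 to 35184792 at 3 h, so every 3 h library was smaller than every 1 h library. Replicates correlated with each other at r = 0.952 to 0.967 on log2 values across 733 sequences, and libraries of different durations at 0.938 to 0.963, so the durations were nearly as alike as the replicates. Heat 1 h replicate 2 stood apart from its group in miR5051 and in a MIR159b sequence, and results that rest on it are given with and without it. Levels are counts per 1000000 (CPM) of the sequences in the shared table, scaled by TMM factors. Fold changes are log2 values of 3 h over 1 h with their SE, and n = 3 libraries per group.

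The sequences with the largest differences came from miR444, known from grasses, where its mature forms silence mRNAs of MADS-box transcription factors. They are the first and the fourth below and are shown with related MIR444b sequences. Capitals in the first pair mark bases that are complementary when both are laid against each other in opposite directions, 16 of 18. In the third, capitals mark the 16 bases shared with the first. In the fourth they mark the 14 bases that are also the start of the mature sequence.
MIR444b, precursor, 18 nt: GCaTGAGGCAaCAACTGC
MIR444b, mature 3′, 21 nt: tGCAGTTGcTGCCTCAaGCtt
MIR444b, precursor, 21 nt: accaaGCATGAGGCAACAACT
MIR444a, precursor, 25 nt: cttgcaagtcgTGCAGTTGCTGCCT

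The 18 nt MIR444b sequence was present after 1 h of heat and nearly absent after 3 h. It stood at 33.3, 14.1 and 21.1 CPM in the 1 h libraries and at 0, 0 and 1.46 CPM in the 3 h libraries, from 173 counts in all at 1 h and 3 at 3 h. In the control libraries of 1 h it was at 0.905, 2.97 and 0 CPM, so the 1 h heated libraries were above both other groups with no overlap. The summed and scaled counts gave a ratio of 54.1 of 1 h over 3 h, with an exact 95% interval of 18.2 to 265 that covers counting error only. The sequence passed the filter on low counts through the 1 h group alone and was picked for its small p. The ratio is therefore no separate support. The fitted log2 change was -5.55 ± 0.82, and it passed edgeR's quasi-likelihood test with an adjusted p of 0.0218. The call held in 11 of 16 alternatives and was lost without heat 1 h replicate 1 (adjusted p = 0.264), without heat 3 h replicate 1 (0.0841) and without heat 3 h replicate 2 (0.0574). It was also lost in edgeR fits of the 9 libraries of lane 1 (0.0851) and of all 18 libraries (0.253). Among the 11, a cut at a log2 change of at least 1 reused the main fit and could not lose the call. Adding the sequences of only 1 table left the fit nearly unchanged (adjusted p = 0.0218). With no filter on low counts, edgeR gave nearly all weight to a spread shared across sequences. The p-values of that fit hardly rest on the replicates of single sequences. In the main fit the shared spread also carried much of the weight. Without heat 3 h replicate 3 the fitted change was -8.83, where the remaining 3 h libraries held 0 counts. Its difference from the 1 h controls rests on the same 1 h heated libraries and is no separate support. In whole shoots, fewer cells that make a small RNA and less of it per cell cannot be told apart. The mature 3′ sequence that it partly complements was at 177, 158 and 164 CPM at 1 h and at 139, 138 and 179 CPM at 3 h (-0.13 ± 0.24, adjusted p = 0.926). All 6 heated values of that mature sequence lay above the control values of 63.4, 74.5 and 53.7 CPM. The 21 nt MIR444b precursor sequence shares 16 bases with the 18 nt sequence. It was at 6.51, 2.13 and 5.16 CPM at 1 h and at 0.371, 0 and 4.87 CPM at 3 h. These ranges overlapped, and it did not pass edgeR's test (-1.45 ± 1.05, adjusted p = 0.903).

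This 18 nt sequence was the 1 call among 733 tested sequences, 0.136% of them, with 0 higher and 1 lower at 3 h. At an unadjusted p under 0.05 there were 49 sequences. DESeq2 called 3, 0.409% of those tested, and all 3 were lower at 3 h. Its second call was the 25 nt MIR444a sequence, which was at 7.28, 7.68 and 9.93 CPM at 1 h and at 0, 0.444 and 0 CPM at 3 h. Its 62 counts at 1 h and 1 count at 3 h gave a ratio of 58.1 with an exact 95% counting interval of 10.1 to 2332. This sequence, too, passed the filter through the 1 h group alone, so the ratio is no separate support. In edgeR its log2 change of -5.42 ± 0.96 had an adjusted p of 0.0525 and did not pass. Without heat 3 h replicate 2, the library with its 1 count at 3 h, the fitted change was -7.35 (adjusted p = 0.125), and with no filter on low counts edgeR called it (adjusted p = 0.000891). The control libraries held 6.79, 4.62 and 0.772 CPM of it at 1 h on lane 1 and 0, 0 and 0 CPM at 3 h on lane 2. The form of 24 nt, shorter by the last base, was at 9.58, 6.403 and 5.96 CPM at 1 h and at 1.48, 1.78 and 0 CPM at 3 h (-2.65 ± 0.81, adjusted p = 0.574). Control means of that form were 3.71 CPM at 1 h and 0.677 CPM at 3 h. Those of the 18 nt MIR444b sequence were 1.29 and 1.33 CPM. Falls of both MIR444a forms were thus also measured without heat, where time and lane cannot be told apart.

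**Figure D1:**
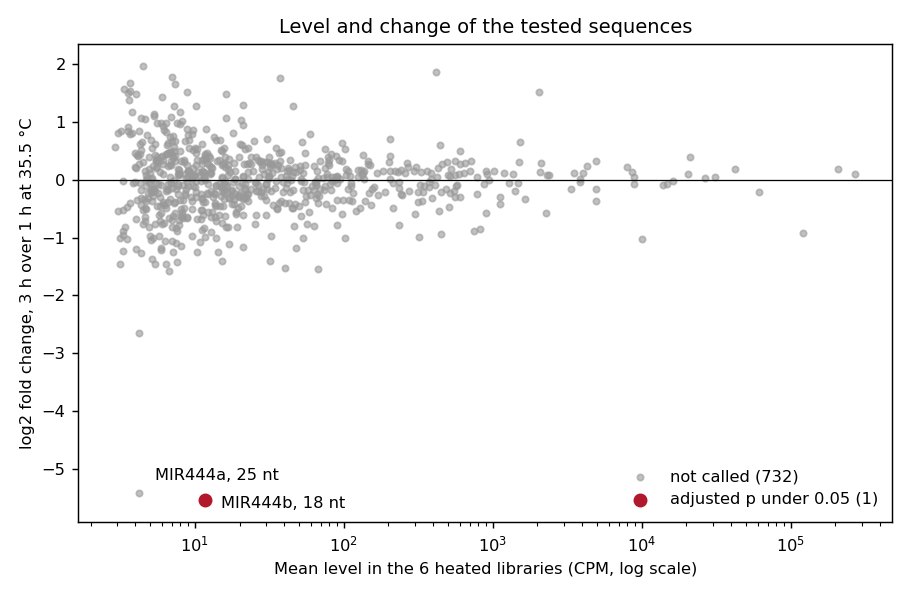
Each point is 1 of 733 sequences, with its mean level over the 6 heated libraries in CPM on a log scale against its log2 fold change of 3 h over 1 h at 35.5 °C. The called MIR444b sequence of 18 nt lies at -5.55 and the MIR444a sequence of 25 nt, which edgeR did not call, at -5.42.

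The remaining miR444 sequences differed less than these forms. Of 49 miR444 sequences tested, 12 had all 3 h values below all 1 h values and 1 had them all above, where 6.82% and 4.5% of all tested sequences did so. The 49 and the 12 both include the MIR444b and MIR444a forms given above. Many of the 49 also overlap in their letters, so these counts are no separate support. Without overlap in either direction there were 83 of 733 sequences, 11.3%. The median log2 change of the 49 was -0.22, against -0.02 over all 733. The family total was 22658, 18460 and 16492 CPM at 1 h and 16579, 16061 and 18073 CPM at 3 h (-0.18 ± 0.19, adjusted p = 0.822), and the ranges overlapped. Both heated groups lay below the controls of 1 h, which were at 36544 to 40290 CPM. The low level at 1 h was thus also measured at 3 h.

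The abundant miR444 sequences show where that level sat. They were chosen after their values were seen, and capitals mark bases 2 to 8 of the mature sequence, the seed.
MIR444b and MIR444c, mature 3′, 21 nt: tGTTGTCTcaagcttgctgcc
MIR444c, precursor, 21 nt: cggcaagctagagacagcaac
MIR444c and MIR444d, precursor, 21 nt: ttttcttgcaagttgtgcagt
The MIR444c sequence was at 6202, 5744 and 4856 CPM at 1 h, at 4516, 4118 and 4389.5 CPM at 3 h and at 18991 to 20074 CPM in the controls of 1 h. The 3 h values were all under the 1 h values, and the difference did not pass (-0.37 ± 0.22, adjusted p = 0.834). Controls of 3 h, on lane 2, were at 13200, 17579 and 16588 CPM, also all under the controls of 1 h. The mature 3′ sequence of MIR444b and MIR444c was at 6879 to 11617 CPM at 1 h and at 7960 to 9682 CPM at 3 h (-0.07 ± 0.25, adjusted p = 0.96). Its controls of 1 h were at 15149, 13219 and 11863 CPM, above all 6 heated values. Within each library, counts of the MIR444c sequence came to 53.4, 66.6 and 70.6% of the counts of that mature sequence at 1 h and to 55.4, 51.7 and 45.3% at 3 h, a difference with p = 0.2 in an exact two-sided permutation test. The controls stood at 133 to 165% at 1 h on lane 1 and at 72.1, 130 and 120% at 3 h on lane 2. The third sequence was at 971 ± 159 CPM at 1 h, 1083 ± 72.8 CPM at 3 h and 982 ± 223 CPM in the controls of 1 h (SD, n = 3), so it was at a like level in all of them. Over the 49 sequences, 10 had all 6 heated values below all control values of 1 h and 4 had them all above, against 4.23% and 4.37% of all tested sequences.

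The other sequences with the smallest p in each direction, at a mean of at least 10 CPM and without overlap, did not pass edgeR's test. Those lower and those higher at 3 h both include passenger strands, the strands of a duplex that are usually lost. Capitals mark bases 2 to 8 of mature sequences, and in the MIR9773 sequence the 23 bases shared with the family's most abundant mature sequence.
MIR408, mature 5′, 21 nt: cAGGGATGgagcagagcaagg
MIR166c, mature 5′, 21 nt: gGAACGTTggctggctcgagg
MIR9773, precursor, 25 nt: TTGTTTTTATGTTATTTTGTGAAga
MIR894, precursor, 18 nt: tttcacgtcgggttcacc
The family miR408 targets mRNAs of copper proteins through its 3′ strand, and the sequence shown is from the 5′ arm. It was at 67.0, 75.6 and 38.5 CPM at 1 h and at 17.8, 26.2 and 18.5 CPM at 3 h, and the controls of 1 h were at 167, 95.7 and 71.8 CPM. The 3 h libraries were the lowest and did not overlap with either group. DESeq2 called it (-1.499 ± 0.39, adjusted p = 0.0265), while edgeR did so only with no filter on low counts (adjusted p = 0.0104) and otherwise did not (-1.53 ± 0.34, adjusted p = 0.19 with the filter). The most abundant miR408 sequence, from the 3′ arm, was at 1323 ± 165 CPM at 1 h and 1427 ± 193 CPM at 3 h (0.11 ± 0.23, adjusted p = 0.927). A ratio chosen after its values were seen was also taken within each library. Counts of the 5′ sequence came to 4.45, 6.38 and 3.01% of that 3′ sequence at 1 h and to 1.15, 2.17 and 1.21% at 3 h. The ranges did not overlap, and p = 0.1 is the smallest that an exact permutation test of 3 against 3 libraries can give. In the controls that share was 7.60 to 9.68% at 1 h on lane 1 and 6.17 to 9.76% at 3 h on lane 2.

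MIR166c 5′ is the passenger side of miR166, which targets mRNAs of class III HD-ZIP transcription factors that pattern leaves. It was at 64.0, 65.3 and 71.5 CPM at 1 h and at 27.4, 36.4 and 24.4 CPM at 3 h, with 108 to 154 CPM in the controls of 1 h. The 3 h libraries were again the lowest (-1.19 ± 0.27, adjusted p = 0.215). The miR166 total was at 278245 ± 65158 CPM at 1 h and 295052 ± 6952 CPM at 3 h (0.08 ± 0.20, adjusted p = 0.878). The MIR9773 sequence of 25 nt was at 30.6 to 64.9 CPM at 1 h and 12.7 to 26.6 CPM at 3 h (-1.40 ± 0.39, adjusted p = 0.574). The MIR894 sequence, matched to a moss precursor, was at 11.5 to 31.8 CPM at 1 h and 7.99 to 8.90 CPM at 3 h (-1.40 ± 0.42, adjusted p = 0.574), so its 3 h libraries lay close together just under the lowest 1 h library.

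The sequences higher at 3 h were end variants and hairpin pieces of 3 families. Capitals mark the stretch that each shares with its family's most abundant mature sequence, and the MIR156e sequence holds no such stretch of 10 bases or more. Laid in the opposite direction, the MIR156e bases largely complement those of that mature sequence, so it is from the passenger side.
MIR156a, MIR156b, MIR156c and MIR156e, precursor, 20 nt: ACAGAAGAGAGTGAGCACac
MIR156d, precursor, 19 nt: TTGACAGAAGAGAGTGAGC
MIR156e, precursor, 22 nt: gctcaccctctctctgtcagct
MIR5051, precursor, 20 nt: TTGGCACCTTGAAACTGGGA
MIR164a, precursor, 21 nt: GGAGAAGCAGGGCACGTGCtc
The family miR156 holds plants in the juvenile phase by targeting SPL transcription factor mRNAs. Its 20 nt variant was at 4.98, 14.1 and 6.36 CPM at 1 h and at 27.8, 23.1 and 20.5 CPM at 3 h (1.49 ± 0.43, adjusted p = 0.574). MIR156e was at 5.98 to 20.3 CPM at 1 h and 26.2 to 32.6 CPM at 3 h (1.30 ± 0.42, adjusted p = 0.574), and MIR156d at 2.68 to 4.70 CPM and 4.82 to 16.0 CPM (1.67 ± 0.58, adjusted p = 0.599). The family's most abundant mature sequence was at 14351 ± 4402 CPM at 1 h and 13503 ± 1123 CPM at 3 h (-0.09 ± 0.27, adjusted p = 0.959), so the variants shown are a small share of the family. The MIR5051 variant was at 6.89, 37.1 and 7.15 CPM at 1 h and at 51.5, 66.6 and 55.0 CPM at 3 h (1.77 ± 0.56, adjusted p = 0.574), with heat 1 h replicate 2 well above the other 1 h libraries. Without that library, left out because of such values, its change was 3.04 (adjusted p = 0.00132). The MIR164a variant was at 11.5 to 14.7 CPM at 1 h and 19.1 to 29.7 CPM at 3 h (0.80 ± 0.33, adjusted p = 0.731), and miR164 targets mRNAs of NAC transcription factors.

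**Figure D2:**
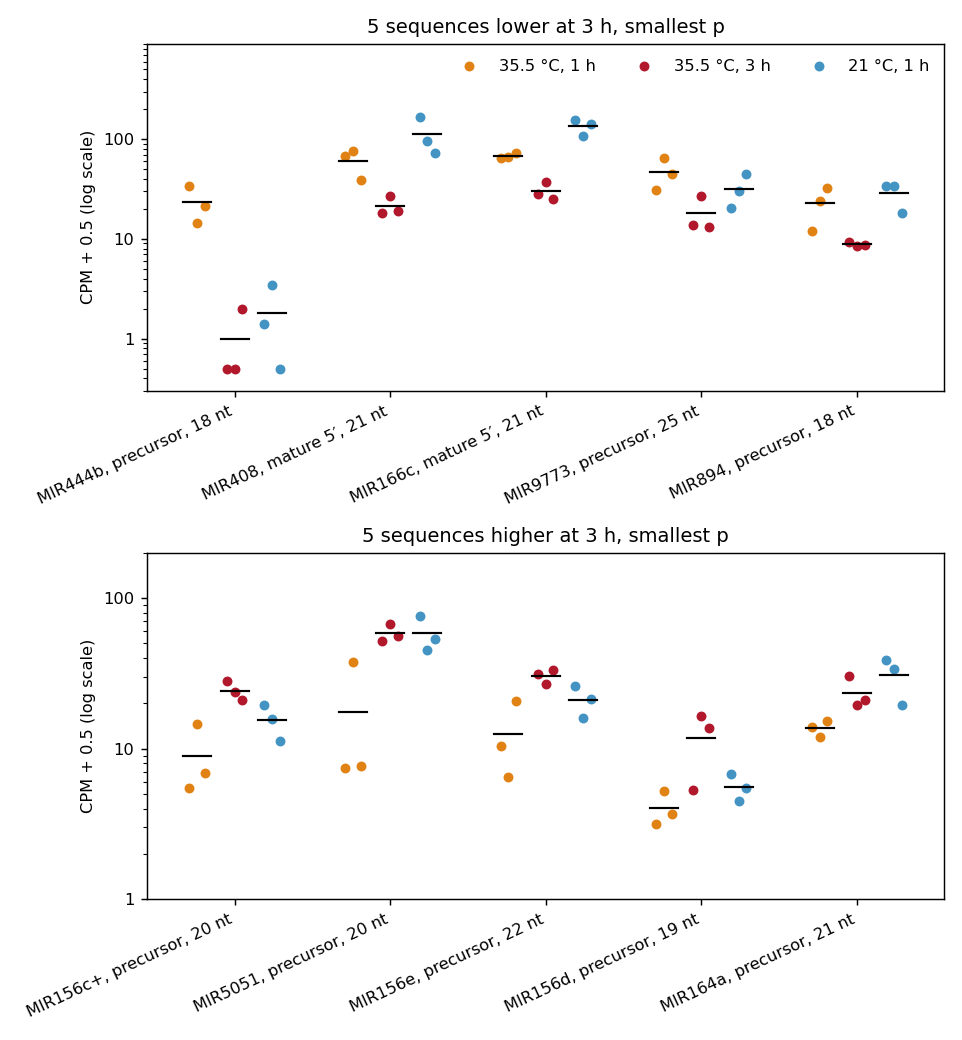
Levels of the 5 sequences with the smallest p that were lower at 3 h (top) and of the 5 that were higher (bottom), as CPM plus 0.5 on a log scale, with 1 point per library and a bar at each group mean. A plus after a name stands for further members with the same sequence. Heated 1 h and 3 h points do not overlap in any of the 10, and 1 of them, MIR444b, was called.

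Some differences turned on 1 library. The cereal family miR5051 was at 348, 2737 and 258 CPM at 1 h and at 2955, 3310 and 3248 CPM at 3 h, beside 2661 to 4517 CPM in the controls of 1 h. Heat 1 h replicate 2 was near the level of the 3 h and control libraries, and the other two were far below it. With all 6 libraries the family's log2 change was 1.51 ± 0.80 (adjusted p = 0.517). Without heat 1 h replicate 2 it was 3.40 and passed edgeR's test (adjusted p = 0.000147). Its mature 3′ sequence (3.51, adjusted p = 0.00012) and the variants of 20 nt (3.04, adjusted p = 0.00132) and 21 nt (2.37, adjusted p = 0.00832) passed in that fit as well, where 2 libraries of 1 h were tested against 3. Heat 1 h replicate 2 was set apart for its values in this family, so the p-values of that fit are no separate support. None of the other fits with 1 library left out called the family. With all 6 libraries and no filter on low counts, the mature 3′ sequence (1.51, adjusted p = 9.93e-05) and the 20 nt variant (1.76, adjusted p = 0.00122) also passed. That fit hardly uses their own replicate spread.
MIR5051, mature 3′, 21 nt: tTTGGCACcttgaaactggga
MIR5051, precursor, 21 nt: TTGGCACCTTGAAACTGGGAc
The capitals of the mature sequence are bases 2 to 8, and those of the variant its stretch in common with it.

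The MIR159b sequence annotated mature 5′ and matched to Brachypodium had the same library apart. Capitals mark bases 2 to 8 of it and of the abundant MIR159b sequence.
MIR159b, mature 5′, matched to Brachypodium, 21 nt: gAGCTCCTatcattccaatga
MIR159b, mature 5′, matched to barley, 21 nt: tTTGGATTgaagggagctctg
The first was at 53.6, 464 and 25.03 CPM at 1 h and at 577, 379 and 1014 CPM at 3 h. Its log2 change was 1.86 ± 0.83 with all libraries (adjusted p = 0.731) and 4.07 without heat 1 h replicate 2 (adjusted p = 0.00132). That library was left out for its values here, so the latter p is no separate support. With all 6 libraries and no filter on low counts this sequence also passed (1.86 ± 0.29, adjusted p = 3.43e-07), though its 1 h and 3 h ranges overlapped. The SE of that fit rests mostly on a spread shared across sequences. The second, the third most abundant sequence of all, differed widely within the 1 h group, at 74426, 128388 and 270918 CPM, against 92673, 116779 and 42051 CPM at 3 h (-0.91 ± 0.46, adjusted p = 0.768). With 1 library left out its change ran from -1.25 to -0.29, the latter without heat 1 h replicate 3. The controls of this sequence averaged 125814 CPM at 1 h on lane 1 and 36891 CPM at 3 h on lane 2. Those of the first averaged 395 and 648 CPM. Family miR159, which targets mRNAs of GAMYB-like transcription factors, had a wide 95% interval, from -2.02 to 0.24. MIR164b and MIR164c shared a mature 5′ sequence that was high in heat 1 h replicate 3, at 213 CPM beside 37.9 and 49.1 CPM in the other 1 h libraries and 17.0 to 51.1 CPM at 3 h (-1.54 ± 0.61, adjusted p = 0.731). Without that library the change was -0.36.
MIR164b and MIR164c, mature 5′, 21 nt: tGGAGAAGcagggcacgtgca
The sequence, with bases 2 to 8 in capitals, passed when no filter on low counts was used (adjusted p = 0.00242). The same limit of that fit applies, and its 1 h and 3 h ranges overlapped.

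**Figure D3:**
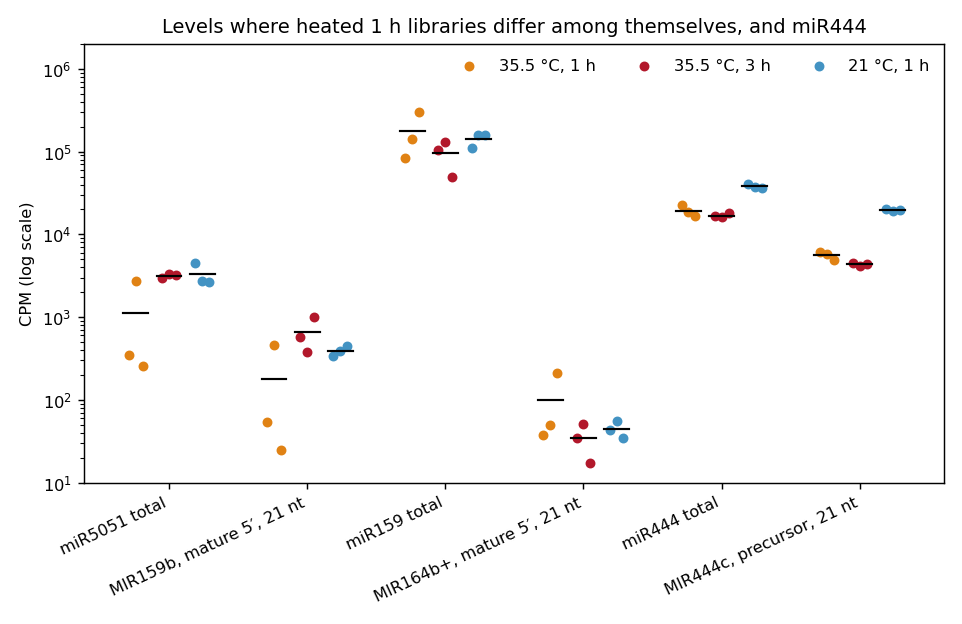
Levels in CPM on a log scale for families and sequences whose heated 1 h libraries lie apart from each other, and for miR444, with 1 point per library and a bar at each group mean. In miR5051 heat 1 h replicate 2, at 2737 CPM, lies with the 3 h and control points, while both heated groups of miR444 lie under its control points.

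No family total passed edgeR's test of 3 h against 1 h at an adjusted p under 0.05 among the 73 tested, which is 0% of them, and 6 had an unadjusted p under 0.05. DESeq2 also called 0, with 5 under an unadjusted p of 0.05. The ranges of 1 h and 3 h did not overlap for 12 families, 16.4%. The 95% interval of the log2 change lay between -1 and 1 for 42 of 73 families, and for 30 of the 38 with a mean of at least 100 CPM. For these families a doubling or halving lies outside the interval. Among single sequences 242 of 733 had such an interval, and 123 of 152 at 100 CPM or more.

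The 5 families with the smallest p were each at an adjusted p of 0.467. Family miR6213 was at 21.1, 20.5 and 23.4 CPM at 1 h and at 8.53, 13.8 and 14.6 CPM at 3 h (-0.82 ± 0.30). Family miR9773 was at 519 to 973 CPM and 262 to 626 CPM (-0.97 ± 0.39), with an overlap. Its control means were 510 CPM at 1 h on lane 1 and 182 CPM at 3 h on lane 2. The remaining 3 were miR8005 at 2.38 and 6.36 CPM on average (1.38 ± 0.52), miR9668 at 8.60 and 3.75 CPM (-1.22 ± 0.51) and miR6196 at 54.2 and 38.3 CPM (-0.50 ± 0.21). All but miR9773 had a mean under 100 CPM in both groups.

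Among families that earlier work named heat responsive in barley, no total passed. Of miR160, miR166, miR167 and miR5175, 3 were tested and 0 passed, and miR5175 had 0 counts. Family miR160, which targets mRNAs of auxin response factors, was at 970.2, 911 and 956 CPM at 1 h and at 1007, 1017 and 827 CPM at 3 h (0.01 ± 0.19). Family miR167, which targets other members of that factor family, was at 29908, 34617 and 20259 CPM at 1 h and at 36716, 36464 and 33960 CPM at 3 h (0.34 ± 0.23, adjusted p = 0.639). The median log2 change of the 3 totals was 0.08, against -0.06 over all 73 families. Of their 122 tested sequences 0 passed.

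Copper families gave 4 tested totals, 0 of which passed, with a median of -0.08. Family miR397, which targets laccase mRNAs, was at 782 to 1409 CPM at 1 h and 1233 to 1419 CPM at 3 h (0.18 ± 0.25), and miR408 at 1716 to 2085 CPM and 1607 to 2036 CPM (0.03 ± 0.20). Family miR398, which targets copper superoxide dismutase mRNAs, was at 80.0 ± 6.35 CPM and 69.5 ± 23.0 CPM (-0.20 ± 0.27). Family miR528 of monocots was at 93.6 ± 24.6 CPM and 81.7 ± 4.34 CPM (-0.20 ± 0.24). All 4 intervals lay between -1 and 1, and miR857 had 0 counts.

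Nutrient families were less precise. Family miR827, which targets mRNAs of SPX-domain proteins of phosphate balance, was at 1486, 1045 and 2445 CPM at 1 h and at 901, 1317 and 997 CPM at 3 h (-0.63 ± 0.33, adjusted p = 0.517). The phosphate family miR399 was at 473 to 1257 CPM and 528 to 791 CPM (-0.25 ± 0.36). The sulfate family miR395 was at 9.39 to 44.5 CPM and 18.9 to 27.98 CPM (-0.02 ± 0.51). For 0 of the 3 did the interval lie between -1 and 1, and a halving lay inside each of them.

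Auxin families had 5 tested totals, 0 of which passed, with a median of 0.01. Beside miR160 and miR167, miR393, which targets mRNAs of the TIR1 and AFB auxin receptors, was at 6220 ± 582 CPM at 1 h and 6528 ± 455 CPM at 3 h (0.07 ± 0.18). Family miR390, which triggers small RNAs against auxin response factors, was at 484 ± 94.2 CPM and 399 ± 46.7 CPM (-0.28 ± 0.22). Family miR164 was at 141 to 304 CPM and 105 to 139 CPM (-0.68 ± 0.32, adjusted p = 0.467), without overlap. Phase change was read from miR156 and miR172, which act in opposite directions in the juvenile to adult transition. They were at 18482 ± 5219 and 38.7 ± 10.5 CPM at 1 h and at 17775 ± 1791 and 48.5 ± 1.498 CPM at 3 h (-0.06 ± 0.25 and 0.33 ± 0.25), and 0 of the 2 passed. The near-identical family miR157 had 1 count at 1 h and 2 at 3 h.

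Leaf development families gave 5 tested totals, 0 of which passed, with a median of 0.08. Family miR396, which targets mRNAs of growth-regulating factors, was at 242626, 297882 and 320310 CPM at 1 h and at 334250, 367209 and 250996 CPM at 3 h (0.15 ± 0.20). Family miR319, which targets TCP factor mRNAs, was at 17459 ± 2533 and 16458 ± 2068 CPM (-0.09 ± 0.20), and miR165 at 488 ± 108 and 588 ± 240 CPM (0.27 ± 0.32). Reads of miR165, miR166 and miR5168, of miR156 and miR157 and of miR159 and miR319 share sequence, so their split follows the authors' annotation and is uncertain. Family miR169, which targets NF-YA factor mRNAs, was at 4317 ± 661 and 4399 ± 1070 CPM (0.03 ± 0.23), and miR171, which targets GRAS factor mRNAs, at 856 ± 42.9 and 819 ± 32.4 CPM (-0.06 ± 0.18). Family miR168, which targets the mRNA of ARGONAUTE1, was at 78816 ± 12794 and 70475 ± 6307 CPM (-0.16 ± 0.19). The other silencing families gave no test, since miR162 had 3 counts at 1 h and 0 at 3 h and miR403 had 0.

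Cereal families gave 14 tested totals of 20, 0 of which passed, with a median of -0.11 and 10 intervals between -1 and 1. Their range ran from miR1130 at 14.5 ± 7.71 and 7.18 ± 2.24 CPM (-1.02 ± 0.46, adjusted p = 0.467) to miR5051. Family miR9662 was at 11287 ± 1062 and 12652 ± 1452 CPM (0.16 ± 0.19) and miR5200 at 10.7 to 14.9 CPM and 5.84 to 8.44 CPM (-0.74 ± 0.34, adjusted p = 0.467). Triggers of reproductive phased small RNAs, which mark floral tissue and not shoot, were nearly absent, with 10 counts of miR2275 at 1 h and 0 at 3 h, and 0 and 2 of miR2118. Family miR482 had 0 counts.

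**Figure D4:**
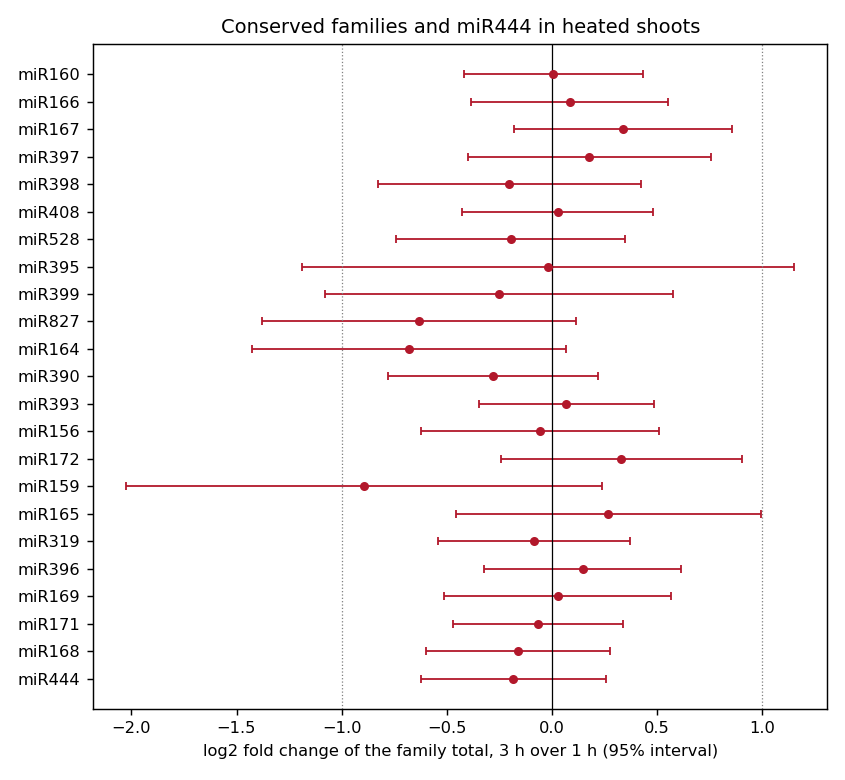
Log2 fold change of 3 h over 1 h at 35.5 °C for the totals of conserved families and miR444, with points for the estimate and bars for its 95% interval. All intervals cover 0, and dotted lines at -1 and 1 mark a halving and a doubling.

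The 10 most abundant sequences held 76.8 to 83.9% of the joined counts at 1 h and 79.6 to 82.2% at 3 h, and 0 of them passed. They are shown with bases 2 to 8 in capitals where annotated mature, and otherwise with the stretch shared with the family's most abundant mature sequence.
MIR166b and MIR166e, precursor, 21 nt: tTCGGACCAGGCTTCATTCCC
MIR396a, MIR396b and MIR396d, mature 5′, 21 nt: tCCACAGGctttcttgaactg
MIR396c, mature 5′, 21 nt: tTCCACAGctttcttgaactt
MIR168, mature 5′, 21 nt: tCGCTTGGtgcagatcgggac
MIR5168, mature 3′, 21 nt: tCGGACCAggcttcaatccct
MIR167f, mature 5′, 22 nt: tGAAGCTGccagcatgatctgc
MIR5048a and MIR5048b, precursor, 22 nt: tataTTTGCAGGTTTTAGGTCT
MIR396a, MIR396b and MIR396d, precursor, 20 nt: TCCACAGGCTTTCTTGAACT
MIR396a, MIR396b and MIR396d, precursor, 18 nt: ACAGGCTTTCTTGAACTG
The abundant MIR159b sequence, shown above, completes the set. The first, which the table calls precursor and which differs from an annotated mature miR166 in its ends, took 24.6 to 26.2% of the joined counts at 1 h and 26.7 to 31.8% at 3 h. Those ranges did not overlap (exact permutation p = 0.1, the smallest possible), while its TMM-scaled level did not pass, at 195208, 271862 and 322983 CPM at 1 h and 275419, 288469 and 280253 CPM at 3 h (0.10 ± 0.24, adjusted p = 0.947). The log2 changes of the other nine ran from -0.91 for MIR159b to 0.40 ± 0.26 for MIR167f.

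Counts by annotation and length were also compared, with exact two-sided permutation tests adjusted over 3 and 8 classes. Mature 5′ sequences held 48.6, 47.2 and 51.8% of counts at 1 h and 46.4, 48.6 and 41.8% at 3 h (exact permutation p = 0.3, adjusted 0.45). Mature 3′ sequences held 8.20 ± 1.40% and 9.15 ± 1.37% (exact permutation p = 0.5, adjusted 0.5), and precursor sequences 42.6 ± 1.28% and 45.2 ± 2.15% (p = 0.2, adjusted 0.45). The ranges of all 3 classes overlapped. Sequences of 21 nt held 82.0 ± 1.92% at 1 h and 81.6 ± 0.960% at 3 h (exact permutation p = 0.8, adjusted 1), and those of 22 nt 6.72 ± 1.22% and 7.30 ± 0.0273% (p = 0.7, adjusted 1). The class of 24 nt held 0.213 ± 0.0267% and 0.220 ± 0.0376% (exact permutation p = 0.9, adjusted 1). Sequences of 25 nt were the only length class without overlap, at 0.0677, 0.0735 and 0.0768% at 1 h and 0.0307, 0.0566 and 0.0412% at 3 h (exact permutation p = 0.1, the smallest possible, adjusted 0.8). Of the 25 nt counts, 65.9 to 87.4% per library were 2 sequences of miR9773, with 4738 counts at 1 h and 2254 at 3 h.

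**Figure D5:**
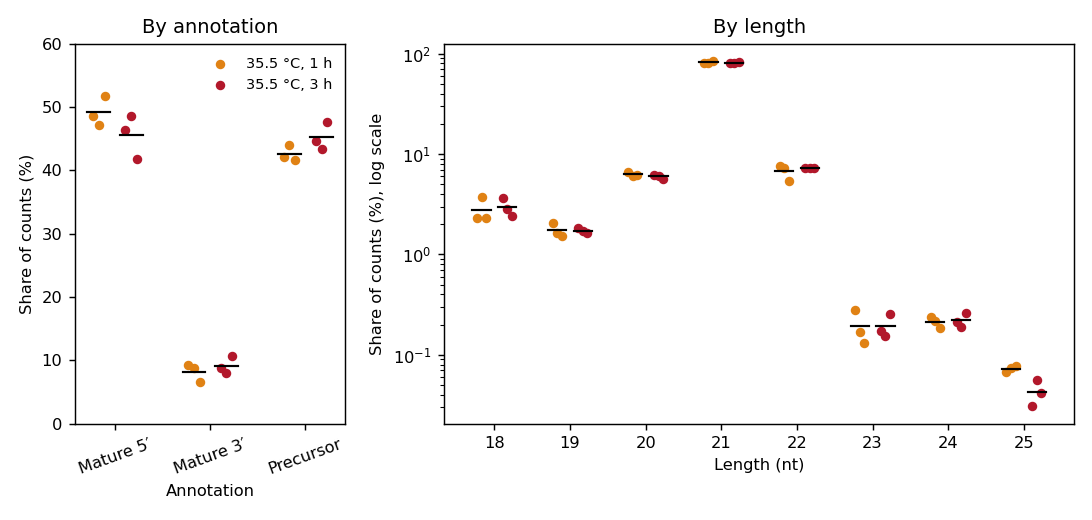
Share of counts in percent by annotation class (left) and by length in nt (right, log scale), with 1 point per heated library and a bar at each group mean. Points of 1 h and 3 h overlap in every annotation class and in every length class but 25 nt.

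Sequences of the shared table with at least 1 count numbered 1939, 1934 and 1946 at 1 h and 1832, 1713 and 1831 at 3 h, without overlap (exact permutation p = 0.1, the smallest possible). The 3 h libraries were smaller. When counts were thinned to equal library totals, a comparison added after seeing the data, the expected numbers were 1809 ± 26.5 and 1758 ± 75.4 (p = 0.4), and when thinned to equal table counts 1822 ± 73.8 and 1720 ± 104 (p = 0.3, exact permutation tests). Annotated sequences made up 5.26, 6.63 and 7.09% of a library's implied total at 1 h and 7.84, 7.86 and 6.54% at 3 h (exact permutation p = 0.3).

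Within families of at least 1000 counts in every heated library, 20 in all, 2 shares were compared by exact permutation tests. The share of mature arms was without overlap in 1 family (5% of the 20), miR408, at 85.8 ± 0.778% at 1 h and 88.3 ± 1.33% at 3 h, and so was that of the most abundant sequence, at 71.3 ± 2.04% and 75.5 ± 0.647% (each with an exact permutation p of 0.1, the smallest possible, adjusted 0.714 and 0.667). For miR444 the share of mature arms was 48.2 ± 4.55% and 52.5 ± 2.46% (exact permutation p = 0.3). Over the 20 families the median size of the difference was 0.994 percentage points for mature arms and 2.67 for the most abundant sequence.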

How the data were processed

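Small RNA libraries of barley shoots (TruSeq Small RNA kit, per the labels' protocols) were read from the deposited tables, where the authors give counts of whole reads for every distinct sequence. Per the file headers the other deposited columns are RPM, and they served only to compute library totals. No aligner, annotation tool or release is stated in the sources used here. Groups follow the labels. Count columns of the 1 h and 3 h tables were joined on the sequence, and family totals were summed by the number in the miRNA name. A sequence in only 1 table had at most 20 counts over the heated libraries, and 1 line without content was left out. Coordinates were not used, for want of a genome.

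Counts of the 6 heated libraries were fitted in edgeR 4.0.16 under R 4.3.3 (quasi-likelihood F test, TMM factors of 0.803 to 1.26, filterByExpr with minimum count 10 and minimum total 15, Benjamini-Hochberg adjustment over all sequences or all families, calls at an adjusted p under 0.05). DESeq2 1.42.0 was an alternative. Exact two-sided permutation tests of shares used scipy 1.17.1, and 3 against 3 libraries cannot go below p = 0.1. Intervals of ratios are exact (Clopper-Pearson, 95%). No 2 libraries were copies, as pairs had chi-square values of 39.0 to 504 for each degree of freedom. Named sequences are the 5 with the smallest p in each direction (mean of at least 10 CPM, no overlap), the 10 most abundant, and, chosen after their values were seen, those called in any alternative and the 3 most abundant of miR444. Members, lists and tests were chosen with earlier results of these data known. Whether the plants of a group were grown apart is not given beyond the word biological, so p-values measure the spread between these samples. In edgeR the spread of each sequence is also pulled toward a spread shared across sequences, and in the main fit that shared spread carries much of the weight. The p-values of the fit with no filter on low counts rest mostly on it. Figures were drawn with matplotlib 3.10.9, using pandas 2.3.3, numpy 2.4.6 and Python 3.11.15.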

Additional observations from a re-analysis of the deposited data

How the results depend on the processing

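The count of called sequences was 1 in the main comparison. DESeq2 gave 3, no filter on low counts 7, and the fits of the 9 libraries of lane 1 and of all 18 libraries 0 each, with 68 and 62 at an unadjusted p under 0.05. Leaving out 1 library gave 0 to 5 called sequences and 0 to 1 called families. The 5 came without heat 1 h replicate 2 (4 higher, 1 lower), as did the 1 family, miR5051. Shares changed direction when the 10 most abundant sequences were left out (mature 5′ 0.242 and precursor -2.31 percentage points, 3 h minus 1 h) and when distinct sequences replaced counts (mature 5′ 0.258, precursor -0.555 and 20 nt 0.928). Changes within 1 SE of 0 were given no direction. Scaling by implied library totals moved the median log2 change of all sequences from -0.02 to 0.23, and that of miR1122 from -0.25 to 0.00915, so changes are relative to the annotated sequences. The causes were not tested. Depth limits sequences of few counts. No paired analysis was possible because the labels give the heated 1 h and 3 h libraries no shared replicate number.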
